A study of Mus musculus with 12 samples.

Results

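RNA precipitated with an antibody to CPEB4 was set against the RNA of the lysate it came from (Input) in 8 of the 12 libraries of the series, 4 per group, chosen by sample title. CPEB4 IP replicates 1 to 4 and Input replicates 1 to 4 entered the comparison, with the replicate number as a block, and the other 4 libraries, precipitated with a control immunoglobulin (IgG IP), are given beside library composition, 3′ UTR length, named genes and gene groups. All groups came from 3T3-L1, an immortalised mouse preadipocyte line of unmodified genotype as far as the labels say. Adipocyte differentiation was induced until day 2 by rosiglitazone (2 µM), dexamethasone (1 µM), IBMX (0.5 mM) and insulin (10 µg/mL), and insulin alone was kept afterwards. Day 8 cells were loaded for 24 h with a fatty acid mixture of 500 µM, made of palmitic acid at 300 µM with oleic and linoleic acid at 100 µM each. The labels name no arm without fatty acids, so every value describes fatty acid-loaded adipocytes of 1 cell line.

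Per the labels, Input alone passed through poly(A) selection, and libraries had 12 or 18 PCR cycles without a statement of which had which. Antibody, selection of tailed RNA and any difference in amplification therefore cannot be told apart in this contrast. The labels do not say that replicates were separate cultures, so p-values measure the spread between these libraries, which may be technical.

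CPEB4 belongs to the cytoplasmic polyadenylation element binding proteins, which bind U-rich elements in 3′ UTRs and set poly(A) tail length and translation by recruiting poly(A) polymerases, deadenylases and translation repressors. In Xenopus oocytes these proteins lengthen the tails of stored cell cycle mRNAs. In mouse liver, CPEB4 is known for its part in the translation of stress response mRNAs. Enrichment of an mRNA in a precipitate over the lysate is the usual first measure of association with such a protein, and it also contains whatever RNA sticks to beads and antibody.

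The measured quantity was the read count per annotated 3′ UTR, a feature of one transcript, in mm10 coordinates. Totals were 858028 to 1578084 counts in Input and 1114911 to 1159188 in CPEB4 IP, and 3 counts in a library were worth 2.16 to 3.01 CPM (counts per 1e6 after TMM scaling, which sets libraries on a common scale by their shared features). A level is thus a share of a library and not an amount of RNA per cell. The feature of Lars2, a mitochondrial leucyl-tRNA synthetase, took 4.602% to 23.7% of the counts of a library, and its log2 fold change was -0.02 (adjusted p = 0.985, SE 0.74). That value averages opposite signs: the log2 ratios of Lars2 were -1.28, -1.99, 1.60 and 1.54 in replicates 1 to 4. Libraries of one group resembled each other most within replicates 1 and 2 and within replicates 3 and 4, whose library numbers in the titles run together: the chi-square per degree of freedom was 4.65 and 3.26 within these pairs in CPEB4 IP and 21.1 to 34.4 across them, and 11.1 and 26.9 against 34.0 to 42.9 in Input. All differences exceeded sampling noise, so the 4 libraries of a group were kept apart.

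Adipocyte markers were read in every library. Their summed level was 12550.2 to 33251 CPM in Input and 21603 to 24763 CPM in CPEB4 IP, and of 13 tested (of 14) 7 were lower in CPEB4 IP and 1 higher, with a median log2 fold change of -0.93. Shares over all tested features were 23.3% lower and 24.3% higher, with a median of 0.74. With the trend on 3′ UTR width taken out, as described below, 5 adipocyte markers were lower and 3 higher, with a median of -0.17. Preadipocyte and fibroblast markers summed to 1134 to 3159.9 CPM in Input and 284 to 578 CPM in CPEB4 IP, with 3 lower and 1 higher of 8 tested and a median of -0.95. Macrophage markers summed to 72.1 to 342 CPM in Input and 55.6 to 128 CPM in CPEB4 IP with 2 of 13 at 0 in all 8 libraries, and endothelial markers to 0 to 80.7 CPM in Input and 4.07 to 26.3 CPM in CPEB4 IP with none of 8 passing the filter on low counts. Muscle and neuron markers summed to 236 to 412 CPM in Input and 21.2 to 47.4 CPM in CPEB4 IP, most of it from Des, the intermediate filament desmin. The fibroblast sum was lower in every CPEB4 IP library than in any Input library, with Vim, vimentin, as its largest member in Input. Precipitate and Input came from the same lysate, so this sum is a level of transcripts and no measure of cell numbers. Its part in the results below was not tested.

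The precipitate and the lysate held clearly different RNA. Of 20586 features, 8051 passed the filter on low counts, and 1960 of them (24.3%) were higher and 1873 (23.3%) lower in CPEB4 IP in the quasi-likelihood test of edgeR (adjusted after Benjamini and Hochberg over all tested features, threshold 0.05), which is the test behind every adjusted p below. Of the 3833 called features, 3827 had the same sign in all 4 replicate numbers, against 68.6% of those tested. The calls were made from these same libraries, so this agreement is no independent evidence. The 4 CPEB4 libraries lay wholly above the 4 Input libraries for 2607 features and wholly below for 2028. The median log2 fold change of all tested features was 0.74, above 0, and it ranged from 0.65 to 1.13 under the other scalings tried. Medians of gene groups are therefore read against 0.74. Counts of called members are read against 24.3% higher and 23.3% lower.

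Without replicate 1 fewer features passed, 1195 higher and 1231 lower, as did without replicate 2 (1218 and 1342) and without replicate 4 (1195 and 1374), whereas without replicate 3 more passed (2216 and 2238). With replicates 1 and 2 alone the counts were 2305 and 2460, and with replicates 3 and 4 alone they were 0 and 0, with 2706 features at an unadjusted p under 0.05 and 0.0697 as the lowest adjusted p. Of the called features, 3825 kept their sign in the first pair and 3830 in the second, but both pairs had entered the calls, so this is no separate test. A test of whether the contrast differed between the pairs called 0 of 8051 features (0%), with 1154 at an unadjusted p under 0.05 and 0.112 as the lowest adjusted p.

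The authors' deposited table, which tests the same contrast, calls 2766 features higher and 2788 lower. Of the features called here, 1955 of the 1960 higher ones and all 1873 lower ones have the same call in the authors' deposited table, and 0 have the opposite one.

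The contrast ran along the length of the 3′ UTR. Without the Lars2 feature, 3′ UTRs under 500 bases held 43.2% ± 5.84 (SD, n = 4) of the Input counts and 6.44% ± 0.305 (SD, n = 4) of the CPEB4 IP counts. 3′ UTRs of 2000 bases or more held 20.1% ± 6.27 and 52.0% ± 1.78. Input replicates 1 to 4 had 15.1%, 15.7%, 28.7% and 20.9% in these long features, and CPEB4 IP had 52.0%, 49.5%, 53.4% and 53.2%. No CPEB4 library came near an Input library, and the exact two-sided permutation p was 0.0286, the smallest that 4 against 4 libraries allow. That test ignored the replicate number, and permuting within the 4 numbers gave an exact p of 0.125, the smallest that 4 pairs allow. The mean 3′ UTR width weighted by counts was 2588 ± 110.2 bases (SD, n = 4) in CPEB4 IP and 1232 ± 265 in Input. In IgG IP long 3′ UTRs held 57.2% ± 2.34 (SD, n = 4) and the weighted width was 2776 ± 215 bases, so both precipitates stood on the same side of Input.

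**Figure D1:**
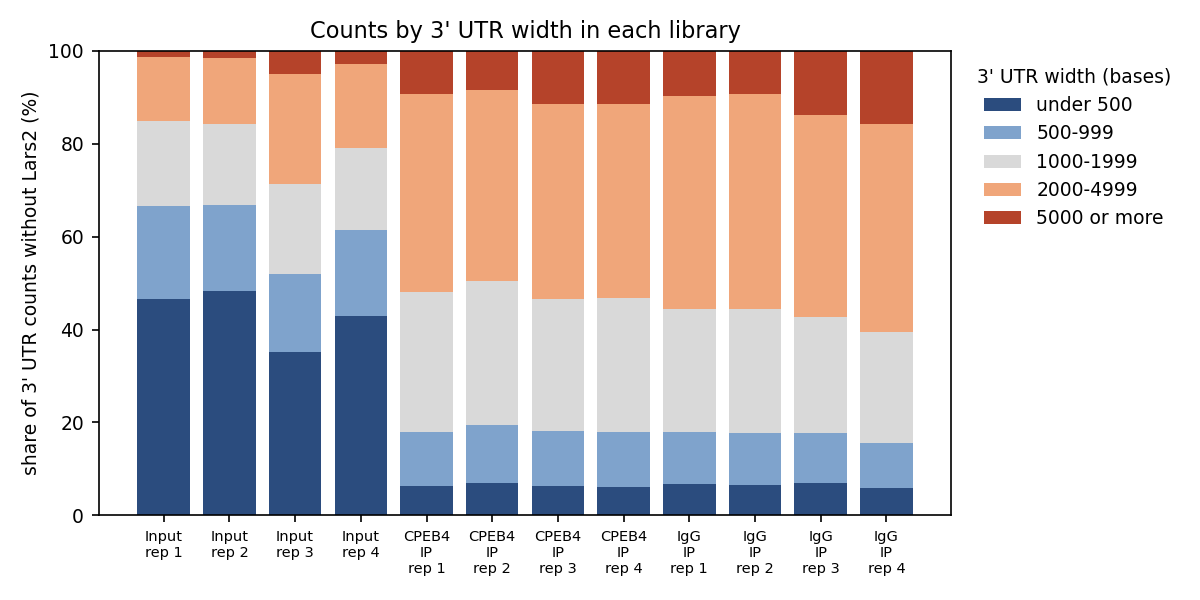
Share of the 3′ UTR counts of each library (y axis, percent, Lars2 left out) that fell in 5 classes of 3′ UTR width, for Input, CPEB4 IP and IgG IP replicates 1 to 4. Features under 500 bases fill 43.2% of Input on average and 6.44% of CPEB4 IP, and 6.50% of IgG IP.

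The median fold change rose with width up to the class of 2000 to under 5000 bases. The median log2 fold change was -3.15 for 1608 features under 500 bases, -0.03 for 1568 of 500 to under 1000, 1.32 for 2234 of 1000 to under 2000, 1.82 for 2286 of 2000 to under 5000 and 1.75 for 355 of 5000 or more. In the shortest class 1009 features were lower and 47 higher, and in the longest 12 and 170. Across features, which are not replicates, the log2 ratio rose with each doubling of width by 1.14, 1.14, 0.692 and 0.935 in replicates 1 to 4 (mean 0.977, SD 0.213). On the scale of all 12 libraries the slope was 0.836 ± 0.178 (SD, n = 4) for CPEB4 IP over Input, 0.818 ± 0.175 for IgG IP over Input and 0.0177 ± 0.0187 for CPEB4 IP over IgG IP, contrasts that share libraries. What poly(A) selection of Input contributed to the trend cannot be told apart from the precipitation.

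To look past width, the test was repeated with the trend of each library on log2 width taken out (a local regression, called the width-modelled fit). The median of all tested features was then 0.18, 1228 features (15.3%) were higher and 1688 (21.0%) lower, and 920 of the higher and 1212 of the lower ones passed in both fits. Without replicate 1, 2 or 4 this fit called 500, 641 or 596 features higher, and without replicate 1 it called 1057 lower. For 31 features the call turned from lower to higher. A width-modelled value says how a feature stood among features of its own length, and it removes any binding preference for long 3′ UTRs together with a technical length trend.

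**Figure D2:**
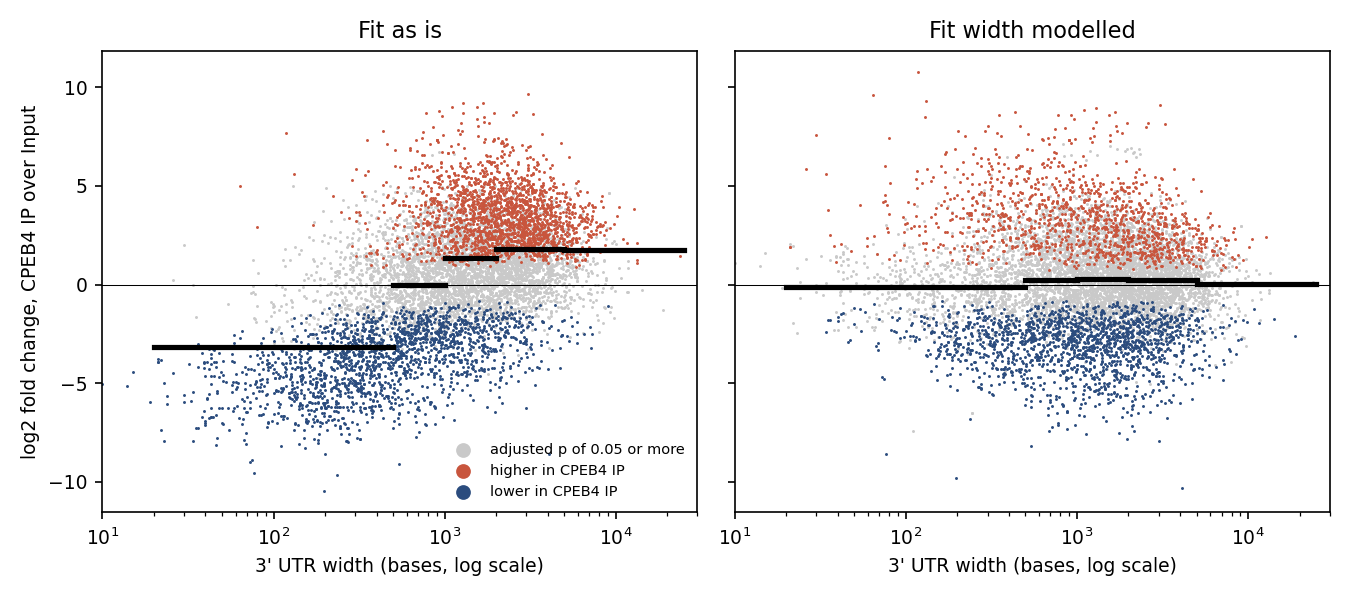
Log2 fold change of CPEB4 IP over Input (y axis) against 3′ UTR width in bases (x axis, log scale) for 8051 features, in the fit as is (left) and with width modelled (right). Red and blue points passed an adjusted p of 0.05, and black bars are the medians of the 5 width classes, from -3.15 under 500 bases to 1.82 at 2000 to under 5000 bases on the left.

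The mRNA of CPEB4 itself was strongly enriched. Its 3′ UTR (transcript ENSMUST00000109412, chr11:31931533-31935634 in mm10, plus strand, 4102 bases) stood at 9.27, 22.7, 69.0 and 46.8 CPM in Input replicates 1 to 4 and at 1743, 1598, 1791 and 2184 CPM in CPEB4 IP. All 4 CPEB4 libraries lay far above all 4 Input libraries, a log2 fold change of 5.89 (adjusted p = 0.000307, SE 0.55), and of 4.16 (adjusted p = 0.000492) with width modelled. Its closest relatives lay on the same side. Cpeb2 read 4.63, 0, 0 and 7.92 CPM in Input and 256, 178, 297 and 255 CPM in CPEB4 IP, a log2 fold change of 6.58 (adjusted p = 0.00145, SE 0.94). Cpeb3 read 2.78, 0, 7.08 and 28.1 CPM and 301, 306, 334 and 336 CPM, a change of 5.75 (adjusted p = 0.0023, SE 0.91). Input libraries held few or no reads of both, so these folds rest on 16 and 50 Input counts in all. Cpeb1, the founding member of the family, had 32 counts in each group, did not pass the filter and was not tested.

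**Figure D3:**
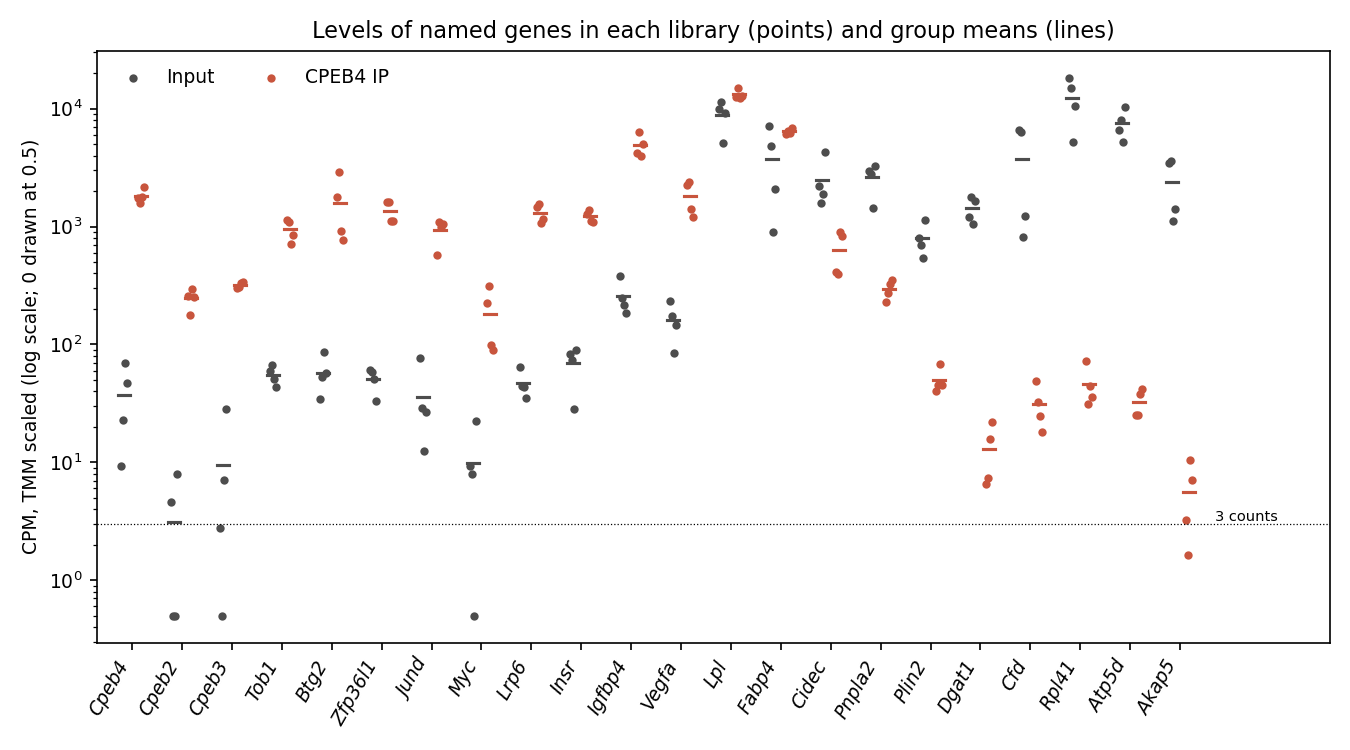
Level of 22 named genes in each library (y axis, CPM on a log scale, 0 drawn at 0.5), with Input in grey and CPEB4 IP in red, points for libraries and short lines for the means of 4. From left to right the genes from Cpeb4 to Vegfa lie higher in CPEB4 IP, Lpl and Fabp4 differ least, and the genes from Cidec to Akap5 lie lower. The dotted line is what 3 counts are worth.

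Groups of genes whose products shorten, lengthen or read poly(A) tails and 3′ UTRs were counted separately. Their counts stand beside 24.3% higher and 23.3% lower of all tested features, or 15.3% and 21.0% with width modelled. Of 19 deadenylation factors (the CCR4-NOT and PAN complexes and the TOB and BTG adaptors), 17 were tested, 9 were higher and 2 lower (8 to 9 higher and 0 to 2 lower without 1 replicate number), with a median log2 fold change of 2.56 against 0.74 for all tested features. With width modelled 7 were higher and 1 lower, with a median of 1.83 against 0.18. The higher ones included the catalytic deadenylases Cnot6, Cnot6l, Cnot7 and Cnot8, at 4.96 (adjusted p = 0.00688, SE 1.03), 2.56 (adjusted p = 0.00921, SE 0.57), 3.36 (adjusted p = 0.00252, SE 0.54) and 1.97 (adjusted p = 0.0126, SE 0.48), and Pan3, the adaptor of the PAN complex, at 5.10 (adjusted p = 0.0077, SE 1.08). The lower ones were the scaffold Cnot1, at -2.34 (adjusted p = 0.0157, SE 0.60), and Cnot10, at -3.06 (adjusted p = 0.0111, SE 0.72). These subunits, like the other genes named below to complete a count of 5 or fewer, were picked after their values were seen.

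The 4 tested TOB and BTG adaptors all rose. Tob1, which recruits deadenylases to mRNAs (3′ UTR at chr11:94214729-94215495 in mm10, 767 bases), stood at 59.3, 67.2, 50.4 and 43.9 CPM in Input and 1132, 1097, 708 and 852 CPM in CPEB4 IP. The groups were far apart, with a log2 fold change of 4.09 (adjusted p = 0.000157, SE 0.31) and of 4.16 with width modelled. Its paralog Tob2 stood at 96.4, 148, 169.9 and 195 CPM and 1296, 2195, 1568 and 1519.6 CPM, a change of 3.45 (adjusted p = 0.000307, SE 0.32). Btg1, from the related BTG family, was even in both groups, at 160.3, 164, 165 and 149 CPM and 1601, 2064, 1854 and 2099.9 CPM, a change of 3.57 (adjusted p = 0.000195, SE 0.29). Btg2, also an immediate-early gene, had 34.3, 53.3, 85.8 and 57.6 CPM and 1777, 2900.5, 919 and 762 CPM, a change of 4.63 (adjusted p = 0.000767, SE 0.56), and the first pair of CPEB4 libraries was higher than the second. Among CCR4-NOT subunits, Rqcd1 (CNOT9) had a log2 fold change of 0.74 (adjusted p = 0.16, SE 0.40).

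Poly(A)-binding proteins and tail enzymes were split between called and uncalled. Shares over all tested features were 24.3% higher and 23.3% lower as is, and 15.3% and 21.0% with width modelled. Of 29 with a feature, 20 were tested, 7 were higher, 0 lower and 13 did not pass (2 to 6 higher without 1 replicate number), with a median of 1.25, and with width modelled 4 were higher, namely Pabpc1 (2.34), Papd5 (2.15), Cpsf1 (4.56) and Cpsf4 (1.10), and 2 lower, namely Cstf1 (-1.66) and Nudt21 (-1.47). Papd5, a noncanonical poly(A) polymerase, changed by 3.68 (adjusted p = 0.000669, SE 0.43). Papola, the canonical nuclear poly(A) polymerase, changed by 1.26 (adjusted p = 0.0356, SE 0.40) as is but by -0.15 (adjusted p = 0.763) with width modelled, and it did not pass without replicate 1 (1.05, adjusted p = 0.133) or without replicate 2 (1.08, adjusted p = 0.145). Paip2, an inhibitor of poly(A)-binding protein, had 0.64 (adjusted p = 0.175, SE 0.36).

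AU-rich element binding and decay factors, which control mRNA stability through 3′ UTR elements, had a median of 3.29: of 19 tested of 23, 14 were higher and 1 lower (13 to 15 higher without 1 replicate number). The lower one was the decapping scaffold Edc4, at -2.71 (adjusted p = 0.00637, SE 0.55). With width modelled the counts were 11 and 1 and the median 1.69. Shares over all tested features were 24.3% higher and 23.3% lower as is, and 15.3% and 21.0% with width modelled. Zfp36l1, a zinc finger protein that promotes decay of AU-rich mRNAs, stood at 61.2, 58.3, 50.4 and 33.1 CPM in Input and 1612, 1619.8, 1114 and 1116 CPM in CPEB4 IP, a change of 4.76 (adjusted p = 0.000125, SE 0.32). Zfp36l2, its paralog, read 24.1, 14.8, 36.3 and 2.16 CPM and 680.3, 512, 601 and 607 CPM, a change of 5.26 (adjusted p = 0.000978, SE 0.68). Pum2, a repressor that binds another 3′ UTR element, changed by 2.66 (adjusted p = 0.000925, SE 0.34), and by 1.02 with width modelled. No Input library reached a CPEB4 library for these 3 genes.

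**Figure D4:**
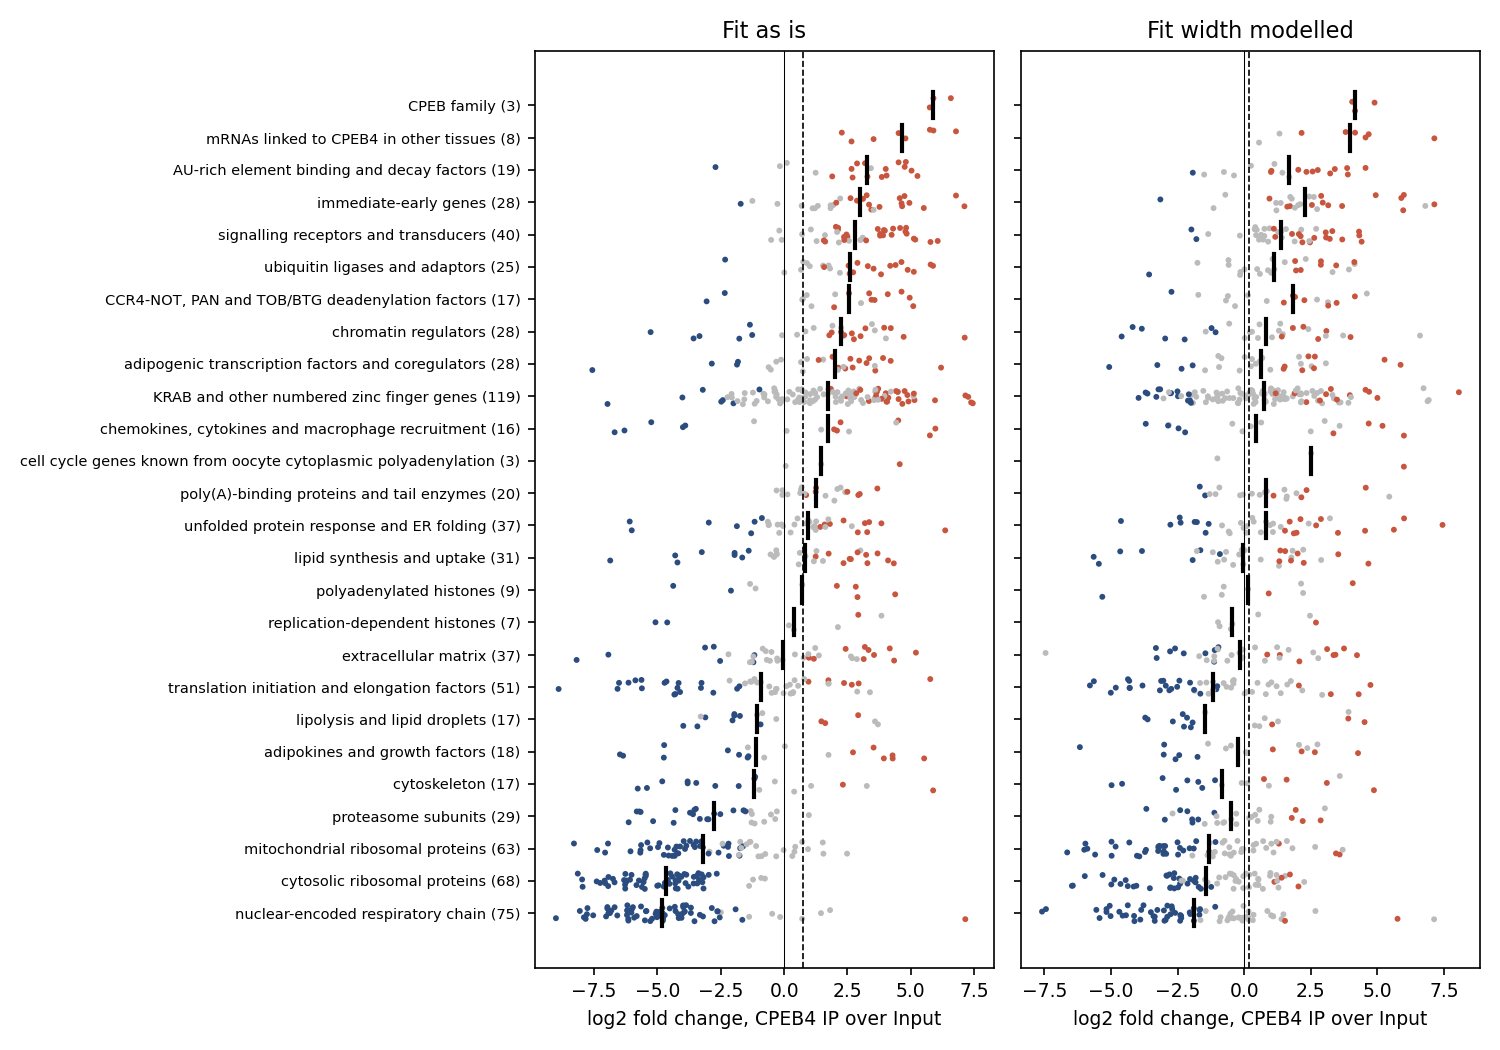
Log2 fold change of CPEB4 IP over Input (x axis) for the tested members of each gene list (y axis, number tested in brackets), in the fit as is (left) and with width modelled (right). Red and blue points passed an adjusted p of 0.05, black bars are list medians and the dashed line is the median of all tested features, 0.74 and 0.18; list medians run from -4.81 for respiratory chain genes to 5.89 for the CPEB family on the left.

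Immediate-early genes, induced within minutes of a stimulus and mostly short-lived, had 16 higher and 1 lower of 28 tested, and 36 were in the table (11 to 17 higher without 1 replicate number). Their median was 2.99, and 2.27 with width modelled, where 13 were higher, beside 24.3% and 15.3% higher among all tested features. The lower one was Klf9, at -1.71 (adjusted p = 0.00471, SE 0.32). Jund, an AP-1 subunit with a 3′ UTR of 533 bases, went from 76.0, 28.6, 12.4 and 26.7 CPM in Input to 576, 1086, 1000.4 and 1056 CPM in CPEB4 IP, a change of 4.95 (adjusted p = 0.000932, SE 0.63). Myc, the growth regulator (chr15:61989909-61990374 in mm10, 466 bases), had 9.27, 7.90, 0 and 22.3 CPM and 226, 315, 99.2 and 90.2 CPM, a change of 4.56 (adjusted p = 0.00693, SE 0.95). Both have short 3′ UTRs and their width-modelled values were larger, 5.90 and 5.99.

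Dusp1, a phosphatase that switches off MAP kinases, rested on very few Input reads, 4.63, 0, 0 and 0.72 CPM against 72.5, 132, 142 and 163 CPM, with a fitted change of 6.78 (adjusted p = 0.00262, SE 1.11). Fosl2, another AP-1 subunit, changed by 3.44 (adjusted p = 0.000726, SE 0.41) and Klf6, a zinc finger factor, by 2.62 (adjusted p = 0.00156, SE 0.38). Ier2 had -1.25 (adjusted p = 0.0941, SE 0.55). The list of mRNAs linked to CPEB4 in other tissues was chosen with earlier results of these data known and is no independent evidence: 8 of 8 tested were higher, among them Vegfa, Txnip, Dusp1 and Cpeb4, with a median of 4.65. Txnip, an inhibitor of thioredoxin, differed strongly between the pairs of libraries, at 1014, 419, 25.7 and 102 CPM in Input and 10589, 7837, 3013 and 3238 CPM in CPEB4 IP, and changed by 4.79 (adjusted p = 0.000982, SE 0.62). Of cell cycle genes known from oocyte cytoplasmic polyadenylation, 3 of 14 were tested, and Myc was the one that passed.

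Receptors and transducers of growth factor signalling were called in 1 direction only in the fit as is. Of 46 with a feature, 40 were tested, 28 were higher and 0 lower (20 to 32 higher without 1 replicate number), with a median of 2.79. Shares over all tested features were 24.3% higher and 23.3% lower. Their 3′ UTRs are long (median 3176 bases), and with width modelled 16 were higher and 2, Tcf7l2 (-1.98) and Akt2 (-1.79), lower, with a median of 1.40 against 0.18. Lrp6, a Wnt co-receptor, stood at 63.9, 44.5, 43.4 and 35.3 CPM in Input and 1451, 1539, 1078 and 1151 CPM in CPEB4 IP, a change of 4.81 (adjusted p = 0.000125, SE 0.32). Insr, the insulin receptor, stood at 83.4, 74.1, 28.3 and 90.0 CPM and 1269, 1379.5, 1123 and 1102 CPM, a change of 4.24 (adjusted p = 0.000322, SE 0.40). Downstream of it, Pik3r1, a regulatory subunit of PI3 kinase, went from 38.0, 59.3, 47.8 and 116 CPM to 781, 590.1, 993 and 1023 CPM, a change of 3.79 (adjusted p = 0.000414, SE 0.38). Tgfbr3, a co-receptor for TGF-beta, changed by 3.79 (adjusted p = 0.000397, SE 0.38). Akt2, the insulin-responsive kinase of adipocytes, had -0.19 (adjusted p = 0.687, SE 0.37), and -1.79 (adjusted p = 0.00731) with width modelled.

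Ubiquitin ligases and adaptors had 15 higher and 1 lower of 25 tested (10 to 14 higher without 1 replicate number), a median of 2.58 as is and 1.13 with width modelled, where 7 were higher, beside 24.3% and 15.3% higher among all tested features. The lower one was the HECT ligase Wwp2, at -2.33 (adjusted p = 0.0353, SE 0.74). Mdm2, the ligase of p53, stood at 1476, 1012, 787 and 567 CPM in Input and 11095, 11416, 7237 and 6909 CPM in CPEB4 IP, and changed by 3.30 (adjusted p = 0.000239, SE 0.29). Nedd4, a HECT ligase, rose by 3.53 and Xiap, an inhibitor of caspases, by 4.63 on the log2 scale (adjusted p = 0.000307 and 0.000898). Chromatin regulators had 12 higher and 6 lower of 28 tested (9 to 12 and 2 to 5 without 1 replicate number), beside 24.3% and 23.3% of all tested features. With width modelled 6 were higher and 7 lower, beside 15.3% and 21.0%, and their median went from 2.25 to 0.81. Kdm6b, a histone H3K27 demethylase, went from 141, 164, 255 and 397 CPM to 648, 872, 1752 and 1697 CPM, a change of 2.37 (adjusted p = 0.000808, SE 0.29), and Setd5 changed by 4.21 (adjusted p = 0.000968, SE 0.54). Chd8, a chromatin remodeller whose counted 3′ UTR is 441 bases, was lower by a log2 fold change of -5.27 (adjusted p = 0.00111, SE 0.70). Of 119 tested numbered zinc finger genes (of 299), 29 were higher and 7 lower (11 to 40 higher without 1 replicate number) beside 24.3% and 23.3% of all tested features. With width modelled 12 of them were higher and 14 lower, so the excess of higher calls was absent in that fit.

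Adipocyte genes did not move as one. Adipogenic transcription factors and coregulators had 13 higher and 4 lower of 28 tested (9 to 14 and 2 to 3 without 1 replicate number), beside 24.3% and 23.3% of all tested features. Their median was 2.02, and 0.63 with width modelled. Nr3c1, the glucocorticoid receptor, stood at 76.9, 37.5, 38.9 and 50.4 CPM in Input and 488, 436, 476 and 470.1 CPM in CPEB4 IP, a change of 3.25 (adjusted p = 0.000547, SE 0.35). Nrip1, a corepressor of nuclear receptors, went from 25.02, 22.7, 100.0 and 47.5 CPM to 555, 519, 669.6 and 734 CPM, a change of 3.90 (adjusted p = 0.000602, SE 0.44). Nr1h3, the oxysterol receptor LXR-alpha with a 3′ UTR of 275 bases, was the opposite: it stood at 509, 763, 924 and 1604 CPM in Input and 1.63, 4.09, 10.5 and 4.01 CPM in CPEB4 IP, a change of -7.57 (adjusted p = 0.000128, SE 0.52) and of -5.06 with width modelled. The other lower ones included LXR-beta (Nr1h2) at -2.86 (adjusted p = 0.00142, SE 0.41) and the corepressor Ncor1 at -1.82 (adjusted p = 0.0402, SE 0.60). Rxra, the partner of PPAR-gamma, had 0.74 (adjusted p = 0.112, SE 0.34), and Lpin1, which makes diacylglycerol and also coactivates transcription, -0.31 (adjusted p = 0.513, SE 0.38).

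Of 17 tested lipid droplet and lipolysis genes (of 20), 8 were lower, 3 higher and 6 did not pass (5 to 10 lower without 1 replicate number), with a median of -1.07. Shares over all tested features were 23.3% lower and 24.3% higher, and 21.0% and 15.3% with width modelled. The same group counts, 8 and 3, came from the width-modelled fit. The higher ones as is were G0s2 (1.47), Pde3b (2.92) and Acsl1 (1.62), where G0s2 inhibits adipose triglyceride lipase and Pde3b is the phosphodiesterase through which insulin restrains lipolysis, and with width modelled they were G0s2 (3.91), Plin1 (1.05) and Hilpda (4.52). Plin2, a droplet coat protein, stood at 802, 698, 539.8 and 1147 CPM in Input and 39.9, 44.9, 68.4 and 45.1 CPM in CPEB4 IP, a change of -3.98 (adjusted p = 0.000421, SE 0.41). Pnpla2, the adipose triglyceride lipase, went from 2972, 2779, 1428 and 3263 CPM to 229, 271, 323 and 351 CPM, a change of -3.11 (adjusted p = 0.00066, SE 0.36). Cidec, which fuses droplets, went from 2197, 1578, 1890.2 and 4302 CPM to 415, 396, 898 and 834 CPM, a change of -1.96 (adjusted p = 0.00303, SE 0.33). All 3 were also lower with width modelled, at -2.68, -3.71 and -2.30. Plin1, the perilipin of adipocyte droplets with 257 bases of 3′ UTR, changed by -1.74 (adjusted p = 0.0036, SE 0.31) as is and by 1.05 (adjusted p = 0.0289) among features of its length, and the latter did not pass without replicate 1, 2 or 4 and turned to -1.14 without the filter on low counts.

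Lipid synthesis and uptake genes were divided, with 11 higher and 8 lower of 31 tested (8 to 11 and 7 to 8 without 1 replicate number), where 24.3% and 23.3% of all tested features were called. Dgat1, which makes triglyceride, stood at 1213, 1797, 1042 and 1639.6 CPM in Input and 6.52, 7.36, 15.8 and 22.1 CPM in CPEB4 IP, a change of -6.87 (adjusted p = 0.000137, SE 0.50). Fasn, the fatty acid synthase, went from 757, 577, 661 and 918 CPM to 79.8, 78.5, 72.8 and 70.2 CPM, a change of -3.25 (adjusted p = 0.000383, SE 0.32). Slc27a4, a fatty acid transporter, changed by -4.30 (adjusted p = 0.000328, SE 0.41). Fasn and Slc27a4 have 3′ UTRs of 1914 and 1789 bases, and their width-modelled values were -4.65 and -5.65. Pdk4, a kinase that spares glucose during fat oxidation, rose from 32.4, 39.5, 46.0 and 51.1 CPM to 302, 669, 711 and 581 CPM, a change of 3.69 (adjusted p = 0.000322, SE 0.35). Lpl, the lipoprotein lipase, and Fabp4, the fatty acid binding protein of adipocytes, did not pass. Lpl had 10002, 11324, 5107 and 9230.5 CPM and 12645, 14938, 12282 and 12888 CPM, a change of 0.62 (adjusted p = 0.107, SE 0.28), although its groups did not overlap. Fabp4 had 7119.6, 4803, 892 and 2084 CPM and 6139, 6523, 6246 and 6806 CPM, a change of 1.17 (adjusted p = 0.101, SE 0.53): CPEB4 libraries lay close together while Input differed by replicate. Its 3′ UTR is 173 bases, and among features of that length it stood at 4.66 (adjusted p = 0.000203).

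Secreted products split by gene. Of 18 tested adipokines and growth factors 6 were higher and 8 lower (5 to 7 and 5 to 9 without 1 replicate number), beside 24.3% and 23.3% of all tested features. Igfbp4, which binds insulin-like growth factors, stood at 377, 246, 218 and 183 CPM in Input and 4230.1, 6347, 3976 and 4985 CPM in CPEB4 IP, a change of 4.29 (adjusted p = 0.000207, SE 0.35). Vegfa, the vascular growth factor, went from 234, 173, 84.1 and 147 CPM to 2232, 2367, 1415 and 1209.8 CPM, a change of 3.53 (adjusted p = 0.000305, SE 0.33). Agt, angiotensinogen, fell from 2189, 3312, 1549 and 2595 CPM to 71.7, 114, 89.5 and 79.2 CPM, a change of -4.74 (adjusted p = 0.000131, SE 0.33). Cfd, the adipokine adipsin, had 6588, 6298, 818 and 1231 CPM in Input, with the first pair far above the second, and 48.9, 32.7, 24.6 and 18.0 CPM in CPEB4 IP, a change of -6.48 (adjusted p = 0.000215, SE 0.55). Retn, resistin, changed by -6.36 (adjusted p = 0.00186, SE 0.96). The 3′ UTRs of Agt and Cfd are 396 and 70 bases, and with width modelled they stood at -3.00 and -1.75.

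Of chemokine, cytokine and acute phase genes 16 of 35 were tested, 6 were higher and 5 lower (3 to 7 and 5 without 1 replicate number), beside 24.3% and 23.3% of all tested features. The lower ones were Mif (-3.995), Lcn2 (-5.25), Hp (-6.30), Orm1 (-6.69) and Rela (-3.90). Hp, haptoglobin, read 2590.0, 4427, 54.9 and 144 CPM in Input and 27.7, 15.5, 4.39 and 3.01 CPM in CPEB4 IP, a change of -6.30 (adjusted p = 0.000855, SE 0.78). Lcn2, lipocalin 2, read 1056, 926, 38.1 and 115 CPM and 7.33, 16.3, 5.27 and 5.01 CPM, a change of -5.25 (adjusted p = 0.00158, SE 0.76). Both acute phase genes were far more abundant in Input replicates 1 and 2 than in 3 and 4, and lower in the precipitate within each pair. Rela, a subunit of NF-kappa B, was even in Input at 198, 192, 217 and 236 CPM and read 8.96, 9.81, 22.8 and 18.0 CPM in CPEB4 IP, a change of -3.90 (adjusted p = 0.000654, SE 0.45).

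Among extracellular matrix genes 10 were higher and 7 lower of 37 tested (5 to 11 and 3 to 8 without 1 replicate number), beside 24.3% and 23.3% of all tested features. Their median was -0.06 with TMM scaling and 0.33, 0.10, 0.23 and -0.15 with DESeq2 size factors, library totals, TMM without Lars2 and upper quartile factors. Its sign thus depended on the scaling, but its place below all tested features did not. The median of all tested features was 0.74, 1.13, 0.84, 1.03 and 0.65 in the same order. The median was -0.55 in replicates 1 and 2 and 1.28 in replicates 3 and 4. Col6a1, a collagen VI chain, went from 177, 86.9, 35.4 and 93.7 CPM to 1234, 1316, 1698 and 2041 CPM, a change of 4.17 (adjusted p = 0.000838, SE 0.51). Mmp11, stromelysin 3, changed by 3.33 (adjusted p = 0.00107, SE 0.44) and Lamc1, a laminin chain, by 2.43 (adjusted p = 0.00084, SE 0.30). Lama4, another laminin chain with a 3′ UTR of 155 bases, was lower, with a change of -6.94 (adjusted p = 0.000239, SE 0.61).

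Genes of the unfolded protein response and endoplasmic reticulum folding had 10 higher and 7 lower of 37 tested (8 to 12 and 4 to 7 without 1 replicate number), and 12 and 8 with width modelled. Over all tested features 24.3% were higher and 23.3% lower as is, and nothing is read from the group's counts. Ero1l, an oxidase that drives disulphide formation, went from 265, 202, 244 and 346 CPM to 2194, 1925, 3019 and 2453 CPM, a change of 3.19 (adjusted p = 0.000311, SE 0.30). Ppp1r15b, which reverses eIF2-alpha phosphorylation, changed by 3.36 (adjusted p = 0.000423, SE 0.34). Derl2, a component of the degradation pathway of misfolded proteins, fell from 402, 484, 329 and 390.5 CPM to 61.9, 67.02, 46.5 and 33.1 CPM, a change of -2.98 (adjusted p = 0.00071, SE 0.35), although its 3′ UTR has 2879 bases. Asns, asparagine synthetase, a target of the amino acid response, was lower, with a change of -6.10 (adjusted p = 0.000279, SE 0.55).

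The protein synthesis and respiratory machinery was depleted from the precipitate. Of 68 tested cytosolic ribosomal protein genes (of 74), 64 were lower and 0 higher (53 to 65 lower without 1 replicate number), with a median log2 fold change of -4.65 against 0.74 for all tested features. Their summed level was 15550.2 to 65407 CPM in Input and 829 to 1247 CPM in CPEB4 IP. Nuclear-encoded respiratory chain genes had 67 lower and 1 higher (Atp5s, 7.15) of 75 tested (57 to 68 lower without 1 replicate number), a median of -4.81 and summed levels of 38692 to 70104 CPM in Input and 1827 to 2592 CPM in CPEB4 IP. In replicates 1 to 4 the median log2 ratio ran from -5.11 to -3.36 for ribosomal and from -5.09 to -3.40 for respiratory genes, so the depletion was present in each replicate.

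Mitochondrial ribosomal proteins had 41 lower and 0 higher of 63 tested (32 to 48 lower without 1 replicate number, median -3.21). Proteasome subunits had 19 lower and 0 higher of 29 (15 to 22 lower without 1 replicate number, median -2.76). These genes have short 3′ UTRs, with medians over tested members of 90.0 bases for ribosomal, 171 for respiratory, 329 for mitochondrial ribosomal and 294 for proteasome genes. Among features of their own length, 32 ribosomal genes were lower and 4 higher (median -1.42), 43 respiratory genes lower and 2 higher (median -1.89), and 31 mitochondrial ribosomal genes lower and 3 higher (median -1.31). For proteasome genes 8 were lower and 4 higher, with a median of -0.48. The few higher ones in that fit were Rpl13 (2.04), Rpl8 (1.13), Rps14 (1.72) and Rplp2 (1.41) among ribosomal genes, Ndufv1 (5.75) and Atp5k (1.53) among respiratory genes, Mrps12 (1.30), Mrps16 (3.45) and Mrps35 (3.58) among mitochondrial ribosomal genes and Psma1 (2.197), Psma4 (1.79), Psma7 (2.87) and Psmb3 (1.94) among proteasome genes. Psma1, an alpha subunit of the proteasome core, read 261, 122, 132 and 152 CPM in Input and 114, 141, 141 and 125 CPM in CPEB4 IP, overlapping groups, with a change of -0.29 (adjusted p = 0.562, SE 0.39) as is. Psmb1, a beta subunit, read 559.7, 436, 108 and 189 CPM and 29.3, 36.0, 10.5 and 21.05 CPM, a change of -3.60 (adjusted p = 0.000575, SE 0.40).

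Rpl41, the smallest ribosomal protein, stood at 18323, 14847, 5187 and 10434 CPM in Input and 72.5, 31.1, 44.8 and 36.1 CPM in CPEB4 IP, a change of -7.98 (adjusted p = 0.000116, SE 0.49) and of -5.31 with width modelled. Rpsa has a longer 3′ UTR of 875 bases, and it went from 1534, 1419, 798 and 1519 CPM to 16.3, 12.3, 14.9 and 26.1 CPM, a change of -6.24 (adjusted p = 0.000116, SE 0.39) and of -6.46 with width modelled. Rplp2, a stalk protein, had -1.23 (adjusted p = 0.0813, SE 0.51) and stood at 1.41 (adjusted p = 0.0123) among features of its length, a value that turned to -0.66 without the filter on low counts and did not pass without replicate 4. Reads of ribosomal genes can be shared with processed pseudogenes: Gm10076 (chr14:105681947-105682211), a pseudogene in RefSeq, had a change of -7.92 and is uncertain.

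Among respiratory genes, Atp5d and Atp5e encode ATP synthase subunits. Atp5d went from 6540.4, 7991, 5185 and 10384 CPM to 25.3, 25.3, 37.7 and 42.1 CPM, a change of -7.84 (adjusted p = 0.000116, SE 0.39), and Atp5e changed by -7.78 (adjusted p = 0.000116, SE 0.40). Ndufs6 of complex I had 931, 1692, 1028 and 1784 CPM and 4.89, 6.54, 7.02 and 3.01 CPM, a change of -7.90 (adjusted p = 0.000116, SE 0.47). Uqcrq of complex III, with 1134 bases, went from 2074, 2324, 1439 and 2370.1 CPM to 6.52, 10.6, 28.1 and 34.1 CPM, a change of -6.88 (adjusted p = 0.00023, SE 0.59). Ndufa11 of complex I, with 2151 bases, went from 282, 319, 329 and 332 CPM to 4.07, 2.45, 4.39 and 10.0 CPM, a change of -6.01 (adjusted p = 0.000215, SE 0.51). The complex II subunits Sdhc and Sdhd, with 2636 and 747 bases, did not pass, at 0.71 (adjusted p = 0.189, SE 0.42) and -0.16 (adjusted p = 0.763, SE 0.40). Cytochrome oxidase subunits Cox4i1 and Cox7a2 changed by -6.59 and -7.76, and Mrps18a of the mitochondrial ribosome by -7.07, all with adjusted p of 0.000128 or less. Mrpl10, also of the mitochondrial ribosome, had -0.02 (adjusted p = 0.967, SE 0.35).

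Of translation factors, 19 were lower and 6 higher of 51 tested (16 to 23 and 3 to 7 without 1 replicate number), with a median of -0.92 and of -1.16 with width modelled. Shares over all tested features were 23.3% lower and 24.3% higher as is. Eef1a1, the elongation factor that delivers aminoacyl-tRNA, went from 3040.4, 2153, 862 and 1592 CPM to 134, 107, 77.2 and 69.2 CPM, a change of -4.21 (adjusted p = 0.000195, SE 0.34). A pair of inhibitors of the cap-binding factor eIF4E took opposite sides. Eif4ebp1, with a 3′ UTR of 545 bases, fell from 1965, 1348, 560.2 and 834 CPM to 44.0, 36.8, 36.0 and 44.1 CPM, a change of -4.72 (adjusted p = 0.000238, SE 0.41). Eif4ebp2, with 1300 bases, rose from 0, 20.7, 9.73 and 11.5 CPM to 331, 459, 509.9 and 549 CPM, a change of 5.77 (adjusted p = 0.00105, SE 0.76). Both calls held with width modelled, at -3.81 and 4.74. Cytoskeletal genes had 10 lower and 2 higher of 17 tested (5 to 10 lower without 1 replicate number), beside 23.3% and 24.3% of all tested features. The higher cytoskeletal genes were Tpm1 (2.32) and Tpm4 (5.88). Vim changed by -5.42 (adjusted p = 0.000167, SE 0.42), Des by -3.81 (adjusted p = 0.00304, SE 0.64), and Actb, beta-actin, had 0.40 (adjusted p = 0.428, SE 0.40).

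Replication-dependent histone mRNAs end in a stem-loop without a poly(A) tail. Of 56 such genes with a feature, 10 had no count in the 8 libraries and 7 were tested, of which 1 was higher and 2 were lower. The tested ones had a median 3′ UTR of 1208 bases against 94.5 for all of them, and nothing on poly(A) selection is read from them. Hist1h1c, a linker histone, went from 87.1, 93.8, 37.2 and 45.4 CPM to 408, 449, 495 and 523 CPM, a change of 2.93 (adjusted p = 0.0015, SE 0.42). The lower ones were the near-identical copies Hist2h2aa1 and Hist2h2aa2 (the latter at -4.61), which are uncertain. Hist2h2aa1 went from 78.8, 91.9, 92.0 and 135 CPM to 1.63, 1.63, 2.63 and 7.02 CPM, a change of -5.08 (adjusted p = 0.000838, SE 0.62). Of 9 tested histones with polyadenylated mRNAs 4 were higher and 2 lower (1 to 4 and 1 to 2 without 1 replicate number), H3f3b among the former, at 2.08 (adjusted p = 0.00163, SE 0.30), and H2afj among the latter, at -4.38 (adjusted p = 0.0055, SE 0.85). The others were H2afv at 2.90, H2afx at 4.38, H1f0 at 2.83 and, lower, H2afy at -2.10. Shares over all tested features were 24.3% higher and 23.3% lower.

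The features with the largest changes, taken by a rule that asked for calls in both fits, the same sign in all 4 replicates, at least 20 counts in each group and a mean level at or above the median, show what else the contrast holds. On the enriched side Rap2c, a small GTPase, went from 1.85, 0, 0 and 13.0 CPM to 301, 269, 295 and 422 CPM, a change of 7.10 (adjusted p = 0.0011, SE 0.95). Lnpep, an aminopeptidase that travels with the insulin-regulated glucose transporter, had 17.6, 24.7, 16.8 and 0.72 CPM and 1263, 1000.3, 922 and 1018 CPM, a change of 6.40 (adjusted p = 0.000702, SE 0.75). Rps6ka3, a growth factor-activated kinase, was seen in 1 of 4 Input libraries (22.2, 0, 0 and 0 CPM against 338, 259.9, 244 and 243 CPM) and changed by 7.18 (adjusted p = 0.00346, SE 1.25). Slc44a1, a choline transporter, changed by 6.71 (adjusted p = 0.00116, SE 0.90) and Ccng2, cyclin G2, by 6.02 (adjusted p = 0.00129, SE 0.84). Smurf2, a ligase of the TGF-beta pathway, rose by 5.78, Tpm4, a tropomyosin, by 5.88 and 3110043O21Rik (C9orf72 in RefSeq) by 6.23 on the log2 scale. Lats1, a kinase of the Hippo pathway, changed by 6.23 (adjusted p = 0.0103, SE 1.43) but did not pass without replicate 1 (5.90, adjusted p = 0.0551). The width-modelled calls of Rps6ka3, Lats1, Smurf2, Tpm4 and 3110043O21Rik were lost when 1 of the replicates was left out. In the fit of all 12 libraries, CPEB4 IP over IgG IP passed for Rap2c (2.43), Slc44a1 (2.25) and Ccng2 (2.49). It did not pass for Lnpep (1.31), Rps6ka3 (0.94), Smurf2 (0.93), Tpm4 (2.01), 3110043O21Rik (1.58) or Lats1 (1.86), with adjusted p from 0.12 to 0.439. For all these genes IgG IP over Input lay between 3.41 (Lats1) and 5.47 (Rps6ka3).

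On the depleted side Akap5, an anchor of protein kinase A (chr12:76330055-76334153 in mm10), went against the length trend. With a 3′ UTR of 4099 bases it went from 3445, 3574, 1107 and 1417 CPM in Input to 3.26, 1.63, 10.5 and 7.02 CPM in CPEB4 IP, a change of -8.61 (adjusted p = 0.000331, SE 0.82) and of -10.31 with width modelled. Lgals1, galectin 1, had 2078, 2139.6, 1621 and 2722 CPM and 4.89, 4.90, 15.8 and 15.04 CPM, a change of -7.82 (adjusted p = 0.000125, SE 0.52). Tpi1, the glycolytic triosephosphate isomerase whose feature overlaps another and is uncertain, changed by -7.74 (adjusted p = 0.000116, SE 0.43). Of the 2641 tested features of 2000 bases or more 155 were lower. All 155 passed in both fits, which is no separate support, since the width model lowers the values of long features. Serbp1, an RNA-binding protein with 5343 bases, was one of the 155: 1371, 1712, 942 and 1632 CPM in Input, 214, 204, 173 and 176 CPM in CPEB4 IP, a change of -2.85 (adjusted p = 0.00048, SE 0.30). AU022252 was another, at -2.50 (adjusted p = 0.00316, SE 0.43). Sars, the seryl-tRNA synthetase, has 1965 bases and changed by -6.49 (adjusted p = 0.000704, SE 0.76). Timm13, a chaperone of mitochondrial import with 711 bases, changed by -7.47 (adjusted p = 0.000116, SE 0.46).

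Short 3′ UTRs enriched in CPEB4 IP were few: 47 of 1608 under 500 bases (2.92%). All 47 passed in both fits. That is no separate support, since the width model raised the median of this class from -3.15 to -0.12. Beside Myc, Arf5, a small GTPase of the Golgi with 444 bases, went from 199, 168, 20.4 and 101 CPM in Input to 777, 1335, 1378 and 1667 CPM in CPEB4 IP, a change of 3.68 (adjusted p = 0.00471, SE 0.69) and of 5.17 with width modelled. With 813 bases, F3, tissue factor, went from 17.6, 8.89, 0 and 0 CPM to 544, 298, 112 and 115 CPM, a change of 5.97 (adjusted p = 0.00134, SE 0.84). Ddit4, an inhibitor of mTORC1 under stress, changed by 5.22 (adjusted p = 0.0104). At the long end Pank3, a pantothenate kinase of coenzyme A synthesis with 5827 bases, went from 114, 86.9, 288 and 215 CPM to 4884, 4356, 6347 and 7453 CPM, a change of 5.16 (adjusted p = 0.000128, SE 0.35), and Megf9 changed by 5.24 (adjusted p = 0.00589, SE 1.04).

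IgG IP libraries held 88013 to 622976 counts. CPEB4 IP over Input, IgG IP over Input and CPEB4 IP over IgG IP share libraries, and the last pair come from 1 fit of all 12 libraries, so their values stand side by side. In a first set of genes IgG IP stood within 1 log2 unit of Input. Tob1 had 0.57 for IgG IP over Input and 3.54 for CPEB4 IP over IgG IP on the log2 scale, Myc 0.33 and 4.09, Arf5 0.45 and 3.16, Kdm6b -0.20 and 2.61, and Mmp11 -0.95 and 4.28. Their IgG IP counts over 4 libraries were 64, 8, 118, 203 and 16, so those of Myc and Mmp11 rest on few reads. In a further set both steps were of similar size, as in Cpeb4 (3.31 and 2.47), Btg1 (1.82 and 1.78), Zfp36l1 (2.01 and 2.77) and Jund (2.11 and 2.74). In others, IgG IP lay most of the way from Input to CPEB4 IP: Pik3r1 had 3.72 and 0.10, Nedd4 3.00 and 0.56, Eif4ebp2 5.18 and 0.49, and Rps6ka3 5.47 and 0.94. Zfp36l2 (3.87 and 1.27), Insr (3.24 and 1.02), Fosl2 (2.80 and 0.66) and Megf9 (4.15 and 0.64) belonged here too. For these, CPEB4 IP over IgG IP did not pass, with adjusted p of 0.114, 0.051, 0.245 and 0.6. The genes of the 3 sets were picked after their values were seen.

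**Figure D5:**
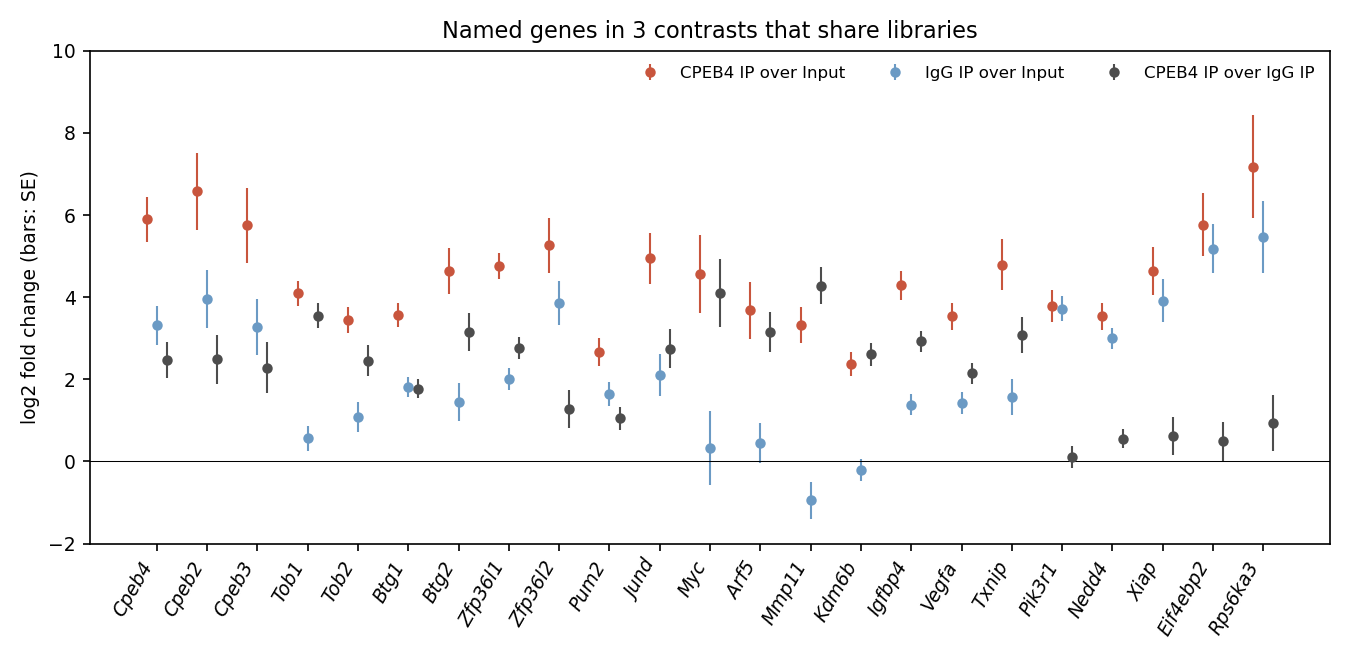
Log2 fold changes (y axis, points, with SE as bars) of 23 named genes for CPEB4 IP over Input (red, fit of 8 libraries), IgG IP over Input (blue) and CPEB4 IP over IgG IP (grey, both from the fit of 12 libraries). Tob1, Myc and Arf5 have a blue point near 0, while Pik3r1, Nedd4 and Eif4ebp2 have a grey point near 0.

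Gene groups are given the same way. Over all features tested in both fits the median was 0.08 for IgG IP over Input and 0.42 for CPEB4 IP over IgG IP. For cytosolic ribosomal proteins the medians were -4.32 and -0.68, for respiratory chain genes -4.01 and -1.05, and for mitochondrial ribosomal proteins -3.09 and 0.13, so both precipitates lay far below Input. Signalling genes had 2.54 and 0.82 and ubiquitin ligases 2.26 and 0.56. Deadenylation factors had 0.87 and 1.53, poly(A)-binding proteins and tail enzymes -0.12 and 1.47, and the CPEB family 3.31 and 2.47. For AU-rich element binding and decay factors (1.74 and 1.27) and immediate-early genes (1.55 and 0.90) the step from Input to IgG IP was the larger. Whether these groups differ from each other in the size of either step was not tested.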

How the data were processed

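RNA-seq reads of immunoprecipitated and lysate RNA were counted by the authors. The deposited counts are whole reads per transcript 3′ UTR, with no normalization, per the file headers. The submitters' processing notes name the build mm10 and, with no role, DESeq2 1.22.1, featureCounts, Bowtie2 2.2.2 and Bowtie 1.2.3. Annotation release, strand setting and step order are not given in the sources used here, so overlapping genes (1040 of the tested features overlap another) and antisense genes cannot be told apart. The authors' deposited table of log2 fold changes and adjusted p-values comes from the same workbook.

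From the counts, the contrast was fitted with edgeR 4.0.16 (R 4.3.3), TMM scaling, filterByExpr (minimum count 10, minimum total 15), a prior count of 0.125, the replicate number as a block and Benjamini-Hochberg adjustment over all 8051 tested features at 0.05. The standard error was the log2 fold change divided by the square root of F. Features without a symbol (697 in the table, 0.954% to 2.23% of the counts) stayed in the fit and were not named. In the width-modelled fit a loess curve (span 0.3) of each feature's deviation on log2 width, with a pseudocount of 0.5, was subtracted per library. Both fits were also run on simulated independent libraries with a linear width trend, a setting unlike these data. The outcome is not reported here, and nothing is read from it. Comparisons of library composition used exact two-sided permutation tests over the 4 libraries a group, and, added after seeing the data, within replicate numbers. Alternatives covered scaling, filter, block, left-out replicates, DESeq2 1.42.0, other width models and all 12 libraries. Dispersion was high: the biological coefficient of variation was 0.672 with the replicate block and 0.649 without it.

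The replicate number was a block by the rule that set this contrast, as the titles give both groups the numbers 1 to 4. Deviations of libraries with the same number had correlations of 0.247, 0.197, 0.130 and 0.207 for numbers 1 to 4. Crossed numbers within replicates 1 and 2 and within 3 and 4 gave 0.102 to 0.262, so the shared deviation also lies between these pairs and is not particular to the number. Members and gene lists were chosen with earlier results of these data known. Named genes were Cpeb1 to Cpeb4 and Lars2; the 12 largest changes on each side past both fits, with a symbol, a mean level at or above the median, at least 20 counts in each group and the same sign in 4 replicates; the 2 highest and 2 lowest such genes per width class; and of each list up to 4 called members by adjusted p and up to 2 uncalled ones by level. Of the 187 genes this gives, 113 are named, and some that the rule gives are not reported here. A planned search of 3′ UTRs for sequence motifs was not run, since no genome was used here.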

Additional observations from a re-analysis of the deposited data

Results flagged for a closer look

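Of 235 groups of 4 libraries examined for the named genes, 9 had 1 library far from the other 3, where chance gives about 1 in 20 groups. The gap to the nearest library divided by the range had to exceed Dixon's critical value.

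In Input, 1 library stood apart for 6 genes. For Rps6ka3 it was replicate 1, with 22.2, 0, 0 and 0 CPM in replicates 1 to 4 and a gap of 1.00 of the range. For Rap2c it was replicate 4, with 1.85, 0, 0 and 13.0 CPM and a gap of 0.857. For Lats1 it was also replicate 4, with 0.927, 0, 0 and 51.1 CPM and a gap of 0.982. For Dusp1 it was replicate 1, with 4.63, 0, 0 and 0.72 CPM and a gap of 0.845. For Xiap it was replicate 3, with 8.34, 9.88, 45.1 and 9.37 CPM and a gap of 0.958. For Rpsa replicate 3 stood below the others, with 1534, 1419, 798 and 1519 CPM and a gap of 0.843. For Rps6ka3, Rap2c, Lats1 and Dusp1 the other Input libraries were at or near 0.

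In CPEB4 IP, Cox7a2 read 4.89, 4.90, 15.8 and 5.01 CPM, with replicate 3 above the others by 0.989 of the range. Papola read 302, 284, 291 and 402 CPM, with replicate 4 above the others by 0.848 of the range. Jund read 576, 1086, 1000.4 and 1056 CPM, with replicate 1 below the others by 0.832 of the range.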

How the results depend on the processing

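No named gene called in the fit as is changed direction under any alternative run, while the number of calls depended on which replicates entered. As is, 1960 features were higher and 1873 lower; leaving out 1 replicate number gave 1195 to 2216 and 1231 to 2238, and replicates 3 and 4 alone gave 0 and 0. With width modelled (1228 and 1688) leaving out 1 gave 500 to 1424 and 1057 to 1793, and replicates 3 and 4 alone 0 and 0. The DESeq2 Wald test called 3464 features higher and 1935 lower, 64.2% of the calls on the higher side against 51.1% in the main result. Omitting the filter on low counts gave 2858 and 1496 (65.6%), and with width modelled summed pairs put 52.3% of calls on the higher side against 42.1%. Fitting all 12 libraries with width modelled called 1848 features higher.

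The median fold change of all features (0.74) was 1.13 with DESeq2 size factors in edgeR, 1.03 with TMM without Lars2, 1.32 without the filter, 1.16 with the DESeq2 Wald test, 0.27 with summed pairs and 0.33 with replicates 1 and 2 alone. With no replicate block it was 0.34, and the counts were 1981 and 2125. The width-modelled median (0.18) turned to -0.17 with no replicate block, -0.035 with the library-number series as block and -0.11 with a linear term of log2 width; without the replicate block the width-modelled counts were 1336 and 2062. Without the filter on low counts the width-modelled values of Plin1 and Rplp2 turned to -1.14 and -0.66, and with a mean count of at least 50 that of Sdhd (-0.046, not called) turned to 0.81; the cause was not tested in these cases.

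Under a permutation within the replicate block, added after seeing the data, the difference in counts from long 3′ UTRs (31.9 percentage points) had an exact p of 0.125. Of 97 named genes called as is, 95 to 97 stayed called without 1 replicate number and 96 without the replicate block; of 102 called with width modelled, 87 to 96 and 93 did. The 3 counts that set the floor amount to 2.16 to 3.01 CPM, so folds of genes at or near 0 in a group, such as Cpeb2, Rps6ka3 and Dusp1, depend on few reads. Poly(A) selection of Input, the antibody step and PCR cycles cannot be told apart, and whether replicates are separate cultures is not stated.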

Other observations

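Regulators of inflammatory signalling were picked after their values were seen, as values outside the account above. Nfkbia, the inhibitor that restrains NF-kappa B, stood at 2.23 (adjusted p = 0.00306, SE 0.38) for CPEB4 IP over Input on the log2 scale by edgeR's quasi-likelihood test, Nfkb1, an NF-kappa B subunit, at 5.97 (adjusted p = 0.0136, SE 1.47) and Socs3, which restrains cytokine receptors, at 5.75 (adjusted p = 0.00556, SE 1.13). Rela, their partner, was on the other side at -3.90. The chemokine Cxcl1 stood at 4.50 (adjusted p = 0.0218, SE 1.26).

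Of 4 tested brown and beige adipocyte markers 1 was higher and 3 were lower (1 to 3 lower without 1 replicate number), with a median of -3.57. Shares over all tested features were 24.3% higher and 23.3% lower. With width modelled 0 of these markers were higher and 1 was lower, with a median of -0.66. The higher one was Ppargc1a, the coactivator of mitochondrial genes, at 2.71 (adjusted p = 0.00101, SE 0.35) as is and 0.98 (adjusted p = 0.0582) with width modelled, while Cox8b, a muscle and brown fat isoform of cytochrome oxidase, stood at -4.66 (adjusted p = 0.0172, SE 1.218). Pparg, the master regulator of adipocyte identity, stood at -0.53 (adjusted p = 0.498, SE 0.62), and at 2.65 with width modelled.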
